A study of Homo sapiens and Mus musculus with 16 samples.

Results

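Aminoacyl-tRNA synthetases are the enzymes that join each amino acid to its own transfer RNA, and so supply the ribosome with charged tRNA. Mammalian cells hold a cytosolic set and a mitochondrial set, both encoded in the nucleus, and several cytosolic enzymes are bound together with scaffold proteins in the multi-synthetase complex. Many cytosolic synthetase genes are known targets of ATF4, the transcription factor of the amino acid response, and WARS, the tryptophanyl-tRNA synthetase, is also known as an interferon-induced gene. The 36 genes described here were chosen by symbol, 20 cytosolic and 16 mitochondrial with a symbol ending in 2, out of 58713 genes in the human table and 53796 in the mouse table. All 36 were found in both tables and all 36 passed the filter on low values in both lines. The list was proposed with results of the knockout comparison known, so its values are given as a description and its counts support nothing by themselves.

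The data were 16 libraries of total RNA, in 4 groups of 4. They came from PD-L1 KO and PD-L1 WT cells of MDA-MB-231, which is a human breast carcinoma line of the triple-negative type with mesenchymal features, and from PD-L1 KO and PD-L1 WT cells of CT26, a mouse colon carcinoma line. The gene was disrupted by CRISPR carried in a lentivirus, MDA-MB-231 was grown in DMEM and CT26 in RPMI medium, each with serum. The sources used here do not give the control vector, say if the KO was a clone or a pool, or say if each library had its own culture, so p-values measure only the spread between libraries, which may be technical.

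Levels are in FPKM (fragments per kilobase of transcript, scaled to the depth of the library), and the lines were normalized apart, so levels were not compared between them. Relative to WT replicate 1 of the line, depth was 0.504 to 0.785 in the KO and 0.940 to 1.22 in the WT libraries of MDA-MB-231, and 0.927 to 2.51 in the KO and 0.796 to 1.14 in the WT libraries of CT26. CD274, which encodes PD-L1, averaged 10.6 ± 1.91 FPKM in the KO and 12.2 ± 0.670 FPKM in the WT of MDA-MB-231 (SD, n = 4 each), a difference that did not pass the test (log2 fold change -0.20, limma adjusted p = 0.166). It was called lower with upper-quartile scaling (-0.40), quantile normalization (-0.32) and subtraction of the median change of the genes within 10 Mb (-0.50), with limma adjusted p = 0.0157, 0.0425 and 0.00463. In CT26 Cd274 averaged 0.526 ± 0.0552 FPKM in the KO and 1.41 ± 0.127 FPKM in the WT (SD, n = 4 each; limma adjusted p = 1.415e-04; exact two-sided permutation p = 0.0286, the smallest that 70 assignments allow). FPKM of a whole gene does not show whether an edited transcript still encodes the protein, so the libraries of MDA-MB-231 are called by their labels. ESR1 averaged 0.0126 FPKM in the KO and 0.0367 FPKM in the WT of MDA-MB-231, and PGR 0.0502 FPKM in the KO and 0 FPKM in the WT. ERBB2, also listed beforehand as a low marker of this line, was not near 0. It averaged 17.8 FPKM in the KO and 24.6 FPKM in the WT, and was called lower. VIM averaged 2545 FPKM in the KO and 1113 FPKM in the WT, and CD44 averaged 321 FPKM in the KO and 1093 FPKM in the WT. Of the CT26 markers, Krt18 averaged 31.6 FPKM in the KO and 33.7 FPKM in the WT, Vim averaged 4531 FPKM in the KO and 3802 FPKM in the WT, and Krt8 was near 0, at 0.145 FPKM in the KO and 0.139 FPKM in the WT. Of the markers of other cell types, the leukocyte genes PTPRC and CD3E and the endothelial gene PECAM1 averaged under 1 FPKM in all 4 groups. CD68, a lysosomal protein used as a macrophage marker, was lower in both KO cultures, at 85.9 FPKM in the KO against 105 FPKM in the WT of MDA-MB-231 and 3.55 FPKM in the KO against 5.30 FPKM in the WT of CT26. The part of these markers in the results below was not tested.

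In MDA-MB-231 most synthetase genes were higher in the KO, in both compartments, and the median log2 fold change was larger over the cytosolic set. Here "rose" and "fell" are used of genes whose adjusted p was under 0.05 in limma, fitted on log2(FPKM + 1) over the whole table. Of the 20 cytosolic genes 17 rose, DARS fell, and CARS and SARS did not pass. Of the 16 mitochondrial genes 11 rose, AARS2 fell, and CARS2, FARS2, IARS2 and PARS2 did not pass. Over all 14450 genes tested in this line, 68.2% were called, 42.6% as higher and 25.7% as lower in the KO. For 28 of the 36 every KO library was above every WT library and for 1 every KO library was below, against 39.1% and 23.6% of all genes (62.7% in either direction). In the authors' deposited table, 26 of the 36 were higher and 2 lower at a q-value under 0.05. The median log2 fold change was 0.71 over the cytosolic and 0.44 over the mitochondrial genes, against 0.18 over all genes tested. That general shift depends on the scaling: with the libraries scaled to their upper quartile it was -0.01, the medians of the cytosolic and mitochondrial sets were 0.49 and 0.24, and 24 genes rose and 4 fell (SARS and FARS2 joining DARS and AARS2). The shares of all genes called at that scaling or by the authors' q-value are not given here, so those counts stand alone. RNA was taken from whole cultures, so a change in the RNA of every cell and a change in the share of cells that express a gene cannot be told apart.

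**Figure D1:**
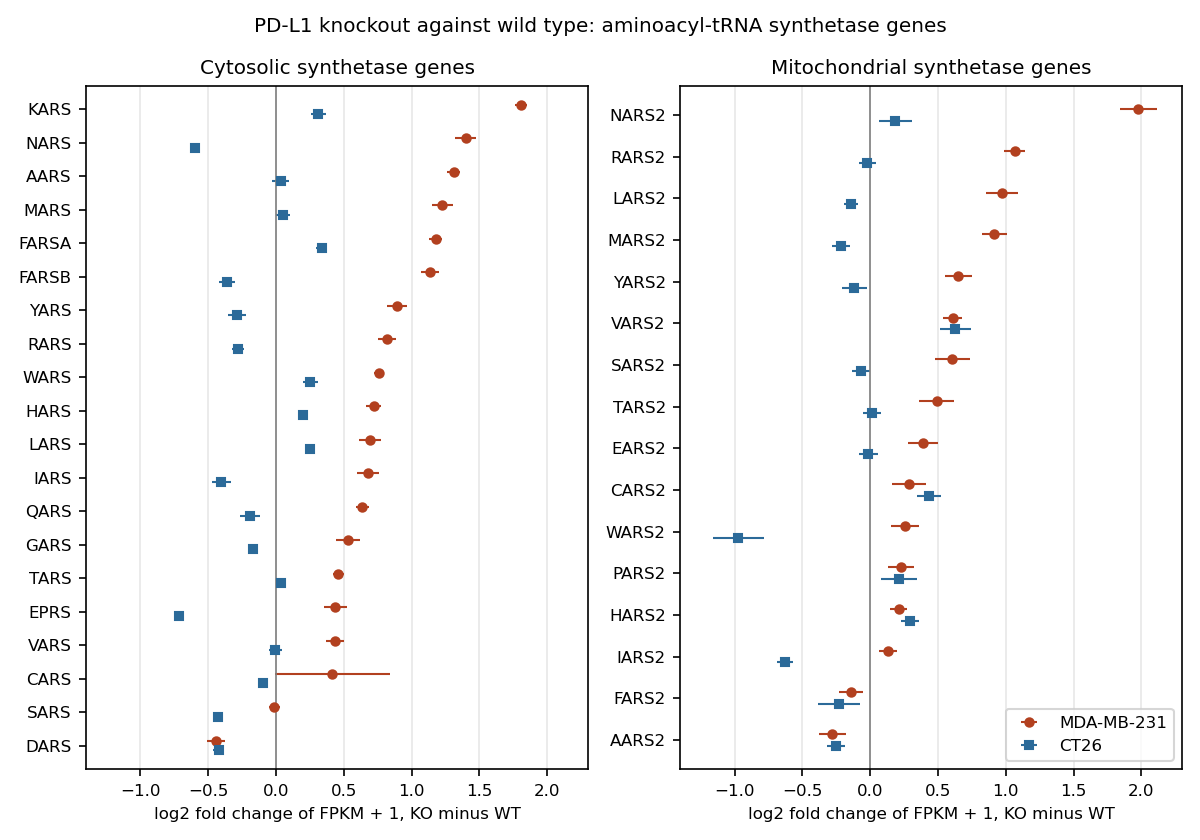
Log2 fold change of FPKM + 1, KO minus WT, for the 20 cytosolic genes (left panel) and the 16 mitochondrial genes (right panel), ordered by the value in MDA-MB-231. Circles are MDA-MB-231 and squares are CT26, and bars are the standard error from limma with 4 libraries a group. The circles reach 1.98 (NARS2) and only DARS and AARS2 were called lower there, while the squares lie on both sides of 0 between -0.97 (Wars2) and 0.63 (Vars2).

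The level of the cytosolic set was separate between the groups in every library. The median FPKM over the 20 cytosolic genes was 124, 125, 120.3 and 115 in KO libraries 1 to 4, against 72.7, 80.5, 82.4 and 82.3 in the WT libraries. The median over the 16 mitochondrial genes was 19.6, 23.5, 20.5 and 20.9 in the KO, against 12.2, 12.01, 10.9 and 13.1 in the WT. The lowest KO library lay above the highest WT library in both sets. On average these medians were 120.9 FPKM in the KO and 79.5 FPKM in the WT for the cytosolic set. For the mitochondrial set they were 21.1 FPKM in the KO and 12.1 FPKM in the WT. By this measure the mitochondrial set rose more relative to its WT, unlike the order of the median log2 fold changes. In the WT, mean levels of cytosolic genes ran between 16.5 FPKM for FARSB and 220.3 FPKM for QARS, the glutaminyl enzyme, and those of mitochondrial genes between 3.53 FPKM for MARS2 and 55.2 FPKM for IARS2.

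KARS, the lysyl-tRNA synthetase that serves both the cytosol and the mitochondria, had the largest rise of the cytosolic set (ENSG00000065427, hg38 chr16:75627474-75648643, minus strand). It stood at 305, 321, 299.97 and 305 FPKM in the KO libraries, against 81.3, 90.9, 87.1 and 89.7 FPKM in the WT libraries. The lowest KO library was above 3 times the highest WT library, and the log2 fold change was 1.81 ± 0.05 (SE). By mean level KARS was the third of the cytosolic genes in the KO and the eighth in the WT. NARS, the asparaginyl enzyme, stood at 183, 213, 218 and 197 FPKM in the KO, against 68.3, 74.3, 79.8 and 82.3 FPKM in the WT, a log2 fold change of 1.40 ± 0.08. AARS, the alanyl enzyme, was close to even within each group, at 90.8, 98.2, 88.6 and 89.2 FPKM in the KO against 36.4, 35.3, 36.3 and 37.5 FPKM in the WT (1.31 ± 0.05). Neither gene's groups overlapped. MARS, the methionyl enzyme of the multi-synthetase complex, was the most abundant synthetase transcript of the KO, at 436, 442, 475 and 452 FPKM, against 204, 169, 218 and 181 FPKM in the WT (1.23 ± 0.08).

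FARSA and FARSB encode the alpha (catalytic) and beta subunits of 1 enzyme, the phenylalanyl-tRNA synthetase, and moved alike in this line. FARSA stood at 129.9, 143, 134 and 135 FPKM in the KO, against 57.0, 60.9, 59.1 and 60.5 FPKM in the WT (log2 fold change 1.18 ± 0.04). FARSB stood at 37.9, 40.6, 34.8 and 36.8 FPKM in the KO, against 15.3, 17.1, 16.4 and 17.2 FPKM in the WT (1.14 ± 0.07). Both subunits were at 228% and 227% of their WT mean, and FARSA stayed well above FARSB in each library. WARS stood at 131, 134, 134 and 128 FPKM in the KO, against 77.2, 79.1, 77.4 and 75.3 FPKM in the WT (0.76 ± 0.04), with no overlap.

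DARS, the aspartyl enzyme of the complex, went the other way from the rest of the cytosolic set. It stood at 94.6, 108, 104 and 97.4 FPKM in the KO, against 124, 146, 139 and 144 FPKM in the WT, a log2 fold change of -0.45 ± 0.07, and every KO library was below every WT library. SARS, the seryl enzyme, averaged 82.8 ± 1.57 FPKM in the KO and 83.6 ± 2.86 FPKM in the WT (SD, n = 4 each), with a log2 difference of -0.01 ± 0.04 (SE). Under upper-quartile scaling and quantile normalization SARS was called lower, at -0.23 and -0.25. CARS, the cysteinyl enzyme, was the least even of the 36, at 46.2, 120.4, 104 and 118 FPKM in the KO against 53.3, 119, 91.8 and 35.998 FPKM in the WT. Its low libraries were replicate 1 in the KO and replicates 1 and 4 in the WT, so the spread within groups was wider than the difference between them (0.42 ± 0.42). The other 10 cytosolic genes that rose did so by log2 fold changes between 0.44 (VARS, the valyl enzyme, and EPRS, the glutamyl-prolyl enzyme) and 0.89 (YARS, the tyrosyl enzyme), and none of their groups overlapped.

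**Figure D2:**
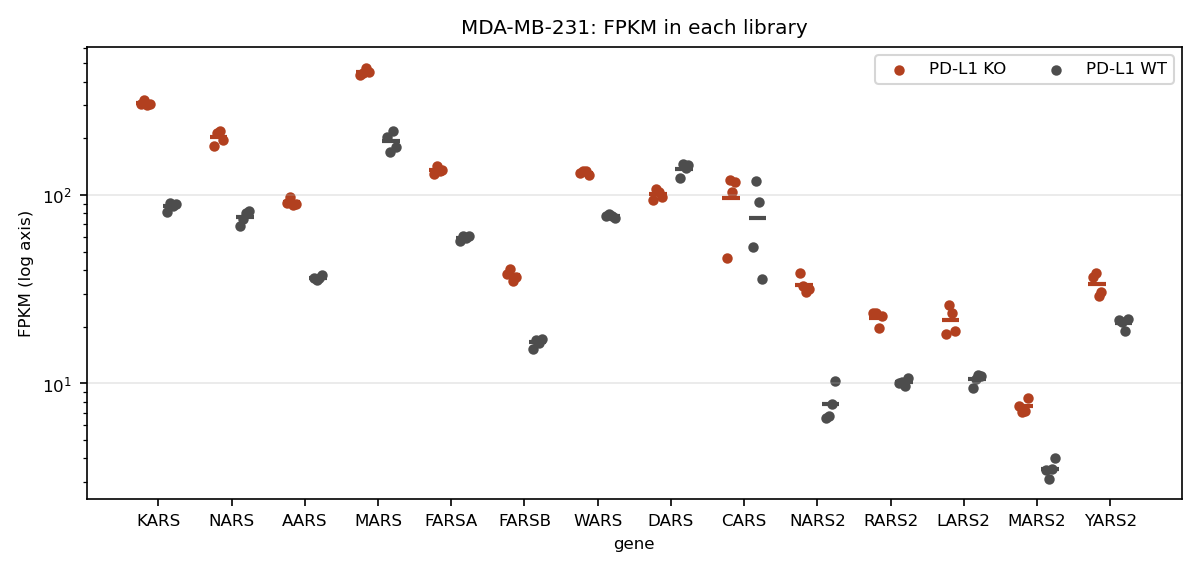
FPKM of 14 synthetase genes in each library of MDA-MB-231, on a log axis, with KO libraries on the left and WT libraries on the right of each gene. Points are libraries and the short lines are group means. KO and WT points are apart for every gene drawn except CARS, whose libraries spread between 35.998 and 120.4 FPKM, and DARS is the gene with its KO points below its WT points.

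Promoter sequence was looked at because ATF4 and its partners of the C/EBP family are known to bind composite sites of the form TGATGNAAN. Windows with 250 bases before and 50 bases after the start of the gene were given by RefSeq (GRCh38.p14) for 30 of the 36 human genes, and DARS, LARS, VARS, YARS, AARS2 and VARS2 were not matched. TGATGNAAN, on either strand, was found in 7 of 16 cytosolic windows (AARS, CARS, GARS, IARS, MARS, NARS and TARS) and in 1 of 14 mitochondrial windows (YARS2), against 4.45% of 27305 genes. The exact form TGATGCAA, picked after the sequences had been seen and contained in the motif above, was in 6 of the cytosolic windows and in 0 mitochondrial ones, against 1.08% of all genes. Of the 7 cytosolic genes with the motif, 6 rose in the MDA-MB-231 KO and CARS did not pass, and of the 9 with a window and no motif 8 rose. Both counts are close to the 17 of 20 of the whole cytosolic set, and 42.6% of all genes were called higher. KARS and FARSA, whose rises were among the largest, had no match in their windows. The matches of CARS, IARS, MARS, TARS and AARS are shown because they share the same 8 bases, with the match in capitals (TTGCATCA is TGATGCAA read on the other strand), each given along the strand of the gene. They lie at chr11:3057394-3057453 (CARS, minus strand), chr9:92293668-92293727 (IARS, minus), chr12:57488038-57488097 (MARS, plus), chr5:33440935-33440994 (TARS, plus) and chr16:70289660-70289719 (AARS, minus).
CARS: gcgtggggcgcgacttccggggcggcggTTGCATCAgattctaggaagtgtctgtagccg
IARS: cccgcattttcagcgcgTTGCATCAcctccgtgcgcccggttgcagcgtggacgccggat
MARS: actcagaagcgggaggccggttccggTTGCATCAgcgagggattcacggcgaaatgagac
TARS: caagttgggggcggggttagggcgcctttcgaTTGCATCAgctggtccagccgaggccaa
AARS: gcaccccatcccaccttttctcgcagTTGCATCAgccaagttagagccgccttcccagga
The match began 2, 13, 4 and 187 bases before the start in CARS, IARS, MARS and AARS, and 14 and 2 bases after it in NARS, whose stretch is not shown, and TARS. A match is a run of letters and not a measured binding site.

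The interferon-stimulated response element core, a pair of TTTC runs with any 2 bases between them on either strand, was in the windows of WARS and EARS2 among the 30, against 4.38% of all genes. The WARS stretch is shown because that gene is the known interferon target of the family, with the match in capitals on the strand of the gene (chr14:100375368-100375427, minus strand), where it reads as the reverse complement 55 bases before the start.
WARS: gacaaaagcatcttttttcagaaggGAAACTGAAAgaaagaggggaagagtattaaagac
The E-box CACGTG was in the windows of IARS, CARS2, EARS2 and MARS2, against 8.77% of all genes. HARS and HARS2, the cytosolic and the mitochondrial histidyl enzyme, start 85 bases apart on opposite strands, and the bases between the RefSeq starts are shown because both genes share them (chr5:140691371-140691454, read on the plus strand of HARS2).
HARS2: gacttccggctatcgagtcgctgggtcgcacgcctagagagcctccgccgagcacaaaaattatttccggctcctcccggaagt
In GENCODE 29 the genes overlap in chr5:140691426-140691862, and whether the authors counted by strand is not given, so reads there could be split between them. In the MDA-MB-231 KO HARS averaged 92.3 ± 5.39 FPKM against 55.6 ± 1.86 in the WT, and HARS2 averaged 16.9 ± 0.735 FPKM in the KO against 14.5 ± 0.548 in the WT (SD, n = 4 each). Both rose, by log2 fold changes of 0.72 ± 0.05 and 0.21 ± 0.06 (SE), and the rise of HARS2 did not pass under upper-quartile scaling or quantile normalization.

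Among the mitochondrial genes of MDA-MB-231, NARS2, the mitochondrial asparaginyl enzyme, had the largest change of all 36 (ENSG00000137513, hg38 chr11:78435961-78574874, minus strand). It stood at 38.5, 32.9, 30.6 and 31.5 FPKM in the KO, against 6.57, 6.70, 7.73 and 10.3 FPKM in the WT, and the log2 fold change was 1.98 ± 0.14 (SE). No KO library came near the WT range. NARS2 ranked twelfth of the 16 by mean level in the WT, and in the KO, at 33.4 FPKM, it was close to YARS2 at 33.7 FPKM. The asparaginyl enzymes of both compartments were thus among the largest rises. RARS2, the mitochondrial arginyl enzyme, stood at 23.5, 23.6, 19.6 and 22.8 FPKM in the KO, against 10.1, 10.2, 9.66 and 10.7 FPKM in the WT (1.06 ± 0.08). LARS2, the mitochondrial leucyl enzyme, stood at 18.3, 26.0, 23.8 and 18.9 FPKM in the KO, against 9.49, 10.5, 11.0 and 11.0 FPKM in the WT (0.97 ± 0.12). Its KO libraries spread more than its WT libraries, and the groups did not overlap.

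MARS2, the mitochondrial methionyl enzyme, was low in this line, at 7.61, 7.05, 7.13 and 8.42 FPKM in the KO against 3.49, 3.13, 3.50 and 4.01 FPKM in the WT (0.92 ± 0.09). YARS2, the mitochondrial tyrosyl enzyme, stood at 36.5, 38.5, 29.1 and 30.5 FPKM in the KO, against 21.7, 21.3, 19.0 and 21.9 FPKM in the WT (0.65 ± 0.10). The groups of both genes were apart, and the call of YARS2 was lost with the median change of the genes within 10 Mb subtracted. AARS2, the mitochondrial alanyl enzyme, was called lower, at 4.52, 4.21, 5.71 and 4.70 FPKM in the KO against 6.25, 5.50, 5.99 and 6.24 FPKM in the WT (-0.28 ± 0.10). KO replicate 3 lay within the WT range, and the call was lost when any library other than KO replicate 3 or WT replicate 2 was left out. The rise of WARS2, the mitochondrial tryptophanyl enzyme (0.26 ± 0.10), was as fragile: its groups overlapped and the call was lost without any of 6 of the 8 libraries. The other 5 mitochondrial genes that rose, EARS2, HARS2, SARS2, TARS2 and VARS2, had log2 fold changes between 0.21 and 0.61.

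In CT26 the synthetase genes were divided between higher and lower in the KO. The share called higher was near that of all genes, and the share called lower was 41.7% against 33.4%. Of the 20 cytosolic genes 5 rose (Farsa, Hars, Kars, Lars and Wars) and 10 fell (Cars, Dars, Eprs, Farsb, Gars, Iars, Nars, Rars, Sars and Yars), and the other 5 did not pass. Of the 16 mitochondrial genes 3 rose (Cars2, Hars2 and Vars2), 5 fell (Aars2, Iars2, Lars2, Mars2 and Wars2) and 8 did not pass. The 8 higher and 15 lower make 22.2% and 41.7% of the 36. Over all 11341 genes tested in this line, 55.8% were called, 22.3% as higher and 33.4% as lower in the KO. For 8 of the 36 the KO lay above the WT without overlap and for 14 below, against 20.3% and 31.1% of all genes (51.5% in either direction). In the authors' deposited table, 7 of the 36 were higher and 12 lower at a q-value under 0.05. The median log2 fold change was -0.13 over the cytosolic and -0.04 over the mitochondrial genes, against -0.06 over all genes tested. With upper-quartile scaling 10 of the 36 rose and 11 fell, in place of 8 and 15, with Cars, Aars2, Lars2 and Mars2 no longer called, and the mitochondrial median turned to 0.038. Here too the shares of all genes called at that scaling or by the authors' q-value are not given. The median FPKM over the cytosolic genes was 107, 109, 105 and 107 in KO libraries 1 to 4, against 113, 109.9, 115 and 119 in the WT libraries, which lay apart by a small gap. Over the mitochondrial genes it was 16.5, 16.6, 14.3 and 18.4 in the KO, against 14.5, 17.0, 13.3 and 14.6 in the WT, and these ranges overlapped.

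Eprs, which encodes the glutamyl-prolyl enzyme of the complex, fell furthest of the cytosolic set (ENSMUSG00000026615, mm10 chr1:185363044-185428360 in the deposited table). It stood at 64.6, 64.1, 65.3 and 61.7 FPKM in the KO, against 107, 107, 105 and 103 FPKM in the WT, with a log2 fold change of -0.72 ± 0.03 (SE). The KO libraries differed from each other by less than 4 FPKM and lay far below the WT. Nars, the asparaginyl enzyme, stood at 179.6, 177, 176 and 182 FPKM in the KO, against 267, 271, 267 and 276 FPKM in the WT (-0.60 ± 0.02). Sars, the seryl enzyme and the most abundant synthetase transcript of the CT26 WT, stood at 217, 225, 208 and 231 FPKM in the KO, against 306, 291, 293 and 298 FPKM in the WT (-0.43 ± 0.04). In both genes every KO library was below every WT library. Dars, the aspartyl enzyme, stood at 44.9, 47.0, 43.2 and 46.1 FPKM in the KO, against 62.9, 58.3, 60.5 and 62.5 FPKM in the WT (-0.42 ± 0.04). Iars, the isoleucyl enzyme, stood at 98.9, 96.8, 91.7 and 83.9 FPKM in the KO, against 127, 110.5, 123 and 131 FPKM in the WT (-0.40 ± 0.07). Both were also free of overlap, and both belong to the multi-synthetase complex.

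The subunits of the phenylalanyl enzyme moved apart in CT26. Farsa stood at 80.9, 81.8, 82.5 and 81.4 FPKM in the KO, against 63.6, 68.5, 60.6 and 65.2 FPKM in the WT (log2 fold change 0.34 ± 0.04). Farsb stood at 59.5, 55.2, 61.9 and 54.4 FPKM in the KO, against 75.9, 75.4, 68.5 and 78.3 FPKM in the WT (-0.36 ± 0.06). Farsa was thus the higher of the subunits in every KO library, and Farsb the higher in every WT library. Wars stood at 70.001, 67.4, 72.3 and 67.5 FPKM in the KO, against 61.0, 52.0, 59.4 and 59.8 FPKM in the WT (0.25 ± 0.05), and the groups did not overlap. Of the other cytosolic genes, Kars, Lars and Hars rose by 0.31, 0.25 and 0.20 on the log2 scale. Yars, Rars, Gars and Cars fell by 0.29, 0.28, 0.17 and 0.10 on the same scale. The call of Cars was lost without any of 4 of the 8 libraries.

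Among the mitochondrial genes of CT26, Wars2 fell furthest and was the gene with the largest change of all 36 in this line (ENSMUSG00000004233, mm10 chr3:99141068-99239186). It stood at 6.01, 8.86, 5.08 and 4.004 FPKM in the KO, against 10.7, 13.4, 13.5 and 11.7 FPKM in the WT, with a log2 fold change of -0.97 ± 0.19 (SE). The KO mean was 48.5% of the WT mean, KO replicate 2 was the highest of its group, and the groups did not overlap. Iars2, the mitochondrial isoleucyl enzyme, stood at 25.5, 26.3, 26.1 and 22.9 FPKM in the KO, against 38.4, 42.2, 36.6 and 40.7 FPKM in the WT (-0.63 ± 0.06). Vars2, the mitochondrial valyl enzyme, had the largest rise, at 24.2, 28.2, 26.5 and 24.0 FPKM in the KO against 17.8, 19.5, 13.0 and 15.3 FPKM in the WT (0.63 ± 0.12). Both were free of overlap. Cars2, the mitochondrial cysteinyl enzyme, stood at 19.3, 18.4, 17.4 and 18.5 FPKM in the KO, against 12.5, 14.6, 11.3 and 15.3 FPKM in the WT (0.43 ± 0.09). Hars2, the mitochondrial histidyl enzyme, stood at 28.8, 30.5, 27.8 and 27.2 FPKM in the KO, against 24.5, 20.4, 24.7 and 23.1 FPKM in the WT (0.30 ± 0.07), and shares its deposited locus with Hars. Lars2, at 157 ± 11.3 FPKM in the KO and 172 ± 4.60 FPKM in the WT (SD, n = 4 each), stood far above the other mitochondrial genes, which reached 43.1 FPKM in the KO and 42.5 FPKM in the WT. Its call as lower (-0.14 ± 0.05) was lost without any of 7 of the 8 libraries, and that of Mars2 (-0.21 ± 0.07) without any of 5.

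**Figure D3:**
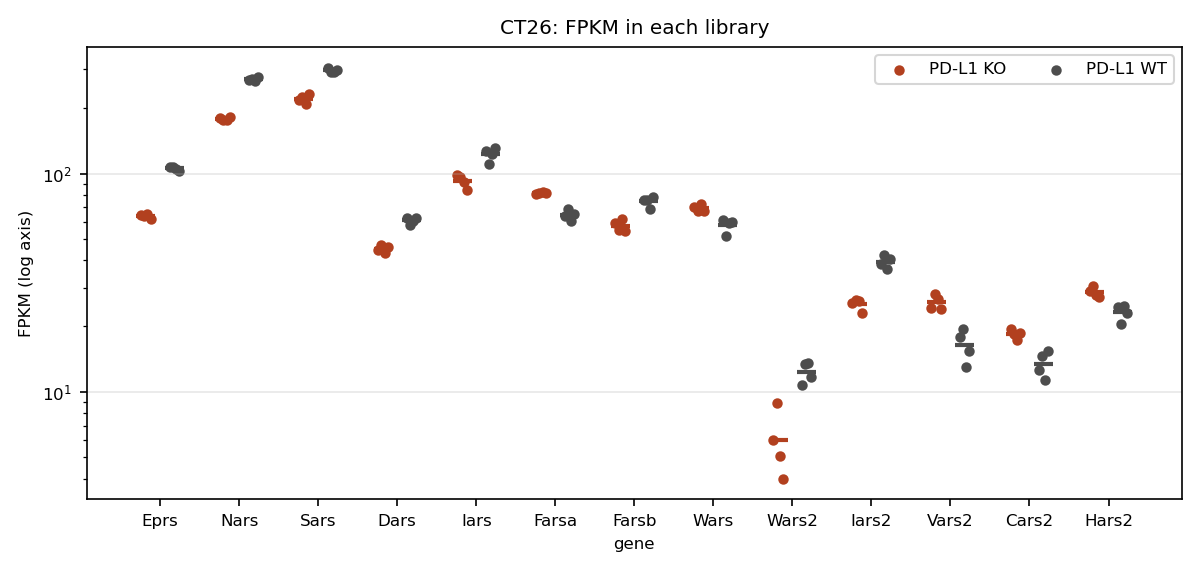
FPKM of 13 synthetase genes in each library of CT26, on a log axis, with KO libraries on the left and WT libraries on the right of each gene. Points are libraries and the short lines are group means. KO and WT points are apart for each gene drawn, Eprs, Nars, Sars, Dars, Iars, Farsb, Wars2 and Iars2 with the KO below and Farsa, Wars, Vars2, Cars2 and Hars2 with the KO above.

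Set side by side, 7 of the 36 genes rose in both KO cultures (FARSA, HARS, KARS, LARS, WARS, HARS2 and VARS2) and 2 fell in both (DARS and AARS2). These are 19.4% and 5.56% of the set, against 11.5% and 9.05% of the 8687 symbols tested in both lines. A further 10 rose in MDA-MB-231 and fell in CT26, and 0 did the reverse, against 17.9% and 5.47% of all symbols. With the median change of the genes within 10 Mb subtracted, VARS2 is the only one of the 7 still called higher in CT26, and Wars turns to lower. AARS2 then stood at 0.12 in MDA-MB-231 and at -0.17 in CT26, without a call in either line. Another 11 rose in MDA-MB-231 and did not pass in CT26, and FARS2 and PARS2 passed in neither. VARS2 and DARS had nearly the same value in both lines, 0.61 in MDA-MB-231 and 0.63 in CT26 for VARS2, and -0.45 in MDA-MB-231 and -0.42 in CT26 for DARS, although after that subtraction DARS stood at -0.64 in MDA-MB-231 and at 0.0058 in CT26. KARS rose in both with unlike sizes, 1.81 in MDA-MB-231 and 0.31 in CT26. The opposite changes were free of overlap in both lines for 8 genes: EPRS, FARSB, GARS, IARS, NARS, RARS, YARS and MARS2. NARS was the furthest apart of these, at 1.40 in MDA-MB-231 and -0.60 in CT26. Of all genes, 39.1% had the KO above without overlap in MDA-MB-231 and 31.1% had it below in CT26. The share of all symbols with both is not given here. After the subtraction Farsb and Mars2 turned to 0.12 and 0.17 in CT26 and Yars stood at -0.14, none of them called. These differences between the lines were not tested.

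Subgroups of the set are given by their counts and medians, with no test. Beside them, 42.6% of all genes tested in MDA-MB-231 were called higher and 25.7% lower, with a median log2 fold change of 0.18. For CT26 these values were 22.3%, 33.4% and -0.06. Of the 8 synthetases of the multi-synthetase complex (EPRS, IARS, LARS, MARS, QARS, RARS, KARS and DARS), 7 rose and 1 fell in MDA-MB-231, with a median log2 fold change of 0.69, against 10 of 12 and a median of 0.74 outside it. In CT26, 2 of the 8 rose and 4 fell, with a median of -0.24, against 3 and 6 of 12 and a median of -0.05 outside it. The 11 cytosolic genes known as ATF4 targets from work on mammalian cells (AARS, CARS, EPRS, GARS, IARS, MARS, NARS, SARS, TARS, WARS and YARS) had a median of 0.68 in MDA-MB-231, with 9 higher and 0 lower, while the other 9 had a median of 0.72, with 8 higher and 1 lower. In CT26 the known targets had a median of -0.17, with 1 higher and 7 lower, and the other 9 a median of -0.0046, with 4 higher and 3 lower. The 18 class I enzymes, whose active site is a Rossmann fold, had medians of 0.66 in MDA-MB-231 and -0.11 in CT26, and the 17 class II enzymes had medians of 0.53 in MDA-MB-231 and 0.02 in CT26. EPRS, which joins an enzyme of each class in 1 protein, was counted in neither.

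Each gene was set beside the median log2 fold change of the genes tested within 10 Mb of it on the same chromosome. In CT26, 31 of the 36 genes had the sign of their neighbours' median, against 68.0% of all genes with neighbours, and in MDA-MB-231 24 of 36 did, against 63.4%. All 5 synthetase genes on mouse chromosome 1 fell (Dars, Eprs, Farsb, Iars2 and Mars2), and their neighbours' medians were between -0.51 and -0.39, although only Eprs and Iars2 lie close to each other. Of the 4 on mouse chromosome 8, Farsa, Kars and Cars2 rose, Aars, close to Kars, did not pass (0.03), and the neighbours' medians were between 0.17 and 0.27. On mouse chromosome 18, Hars, Hars2 and Lars rose beside neighbours at 0.23 to 0.24, and Nars, elsewhere on that chromosome, fell beside neighbours at -0.47. Genes that lie close together also differed: on mouse chromosome 17 Vars2 rose by 0.63 and Vars stood at -0.0046 without a call, and on chromosome 3 Wars2 fell by 0.97 and Tars2 stood at 0.02 without a call. Sars on chromosome 3 and Aars2 on chromosome 17 fell. The part of such regional shifts in the change of each gene was not tested.

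When the median deviation of the neighbours was subtracted in every library, 3 of the 36 genes were called higher and 11 lower in CT26. The shares of all genes called after the subtraction are not given here for either line, so these counts are a description only. Dars then stood at 0.01, Farsb at 0.12, Mars2 at 0.17 and Farsa at 0.06, none of them called, and Wars was called lower at -0.24 in place of higher, its neighbours having a median of 0.51. Eprs kept a call as lower at -0.27 and Nars at -0.14, both much smaller than before. Wars2 at -0.93, Vars2 at 0.75, Sars at -0.32 and Iars at -0.31 changed less, and their neighbours' medians were between -0.10 and -0.03. In MDA-MB-231 the same subtraction left 26 genes higher and 2 lower. YARS2 and EARS2 lost their calls as higher, at 0.21 each, and QARS and TARS kept theirs at 0.22 and 0.12. KARS and AARS both lie on chromosome 16, where their neighbours had medians of 0.87 and 0.85, and they stood at 0.95 and 0.48 after it. NARS2 stood at 1.85 and FARSA at 1.26, near their first values, with neighbours at 0.11 and -0.05. VARS and VARS2, in the MHC region of chromosome 6 with neighbours at -0.46, stood at 0.87 and 1.03. CARS2 was called lower at -0.50 beside neighbours at 0.72, and AARS2 stood at 0.12 without a call.

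**Figure D4:**
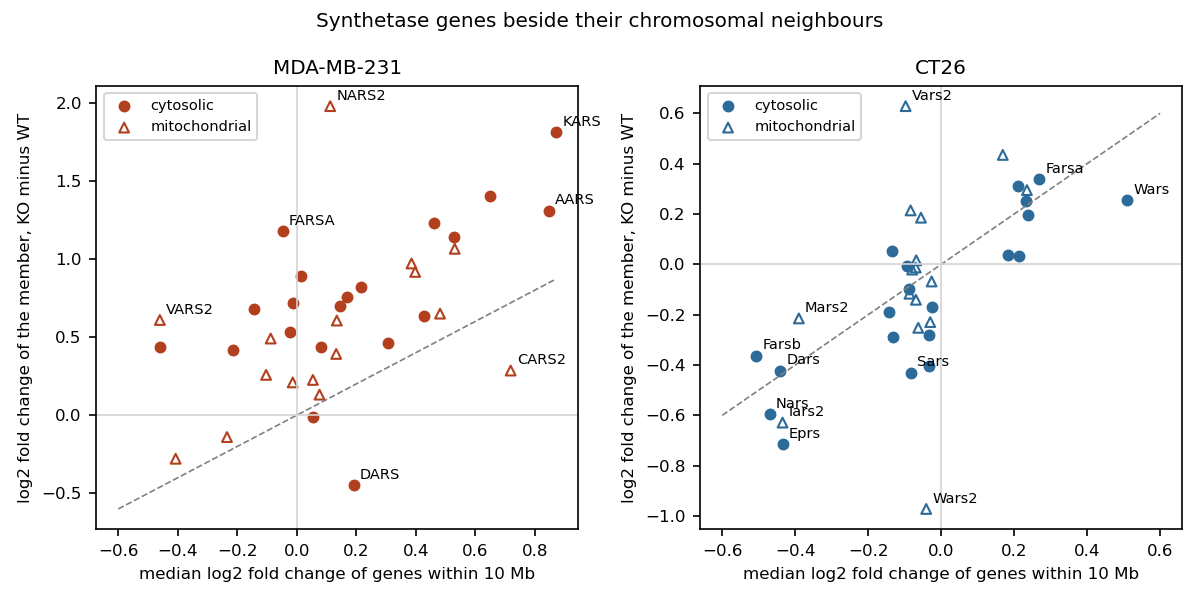
Log2 fold change of each synthetase gene (vertical axis) against the median log2 fold change of the genes tested within 10 Mb (horizontal axis), KO minus WT, in MDA-MB-231 (left) and CT26 (right). Filled circles are cytosolic and open triangles mitochondrial genes, and the dashed line marks equal values. In CT26, Eprs, Nars, Iars2, Dars, Farsb and Mars2 sit at the left with neighbours at -0.39 or lower, and Wars2, Vars2 and Sars lie off the line with neighbours near 0; in MDA-MB-231 most genes lie above the line.

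Other genes of tRNA charging moved with the synthetases in MDA-MB-231 and were mixed in CT26. The lists from here on were also chosen with earlier results of these data known. Apart from the scaffold genes, most genes are named for their small adjusted p, so the p-values printed are a description only. The scaffold proteins of the complex, AIMP1, AIMP2 and EEF1E1, all rose in the MDA-MB-231 KO. AIMP2 averaged 64.5 ± 4.40 FPKM in the KO and 37.6 ± 1.91 FPKM in the WT (SD, n = 4 each; log2 fold change 0.76, limma adjusted p = 8.027e-06), EEF1E1 rose by 0.54 (adjusted p = 1.840e-04) and AIMP1 by 0.36 (adjusted p = 0.00506). In CT26 Aimp2 fell, to 72.0 ± 3.58 FPKM in the KO against 95.4 ± 6.52 FPKM in the WT (-0.40, limma adjusted p = 4.464e-04). Aimp1 and Eef1e1 did not pass there, at 0.06 and -0.16. The genes within 10 Mb had medians of 0.0009, -0.23 and -0.03 around AIMP2, EEF1E1 and AIMP1 in MDA-MB-231. Around Aimp2, Eef1e1 and Aimp1 in CT26 they were -0.32, -0.04 and -0.03.

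A list of 15 charging partners covers tRNA export, end repair, proofreading, amidation and delivery to the ribosome, and holds TARSL2, a second threonyl enzyme, which was not among the 36. In MDA-MB-231, 13 of the 15 rose and 0 fell (86.7% higher, against 42.6% of all genes), with a median log2 fold change of 0.92. TUFM, the mitochondrial elongation factor that brings charged tRNA to the ribosome, averaged 356 ± 16.6 FPKM in the KO and 146 ± 7.96 FPKM in the WT (1.28, limma adjusted p = 9.880e-08). XPOT, the exportin for tRNA, averaged 80.9 ± 2.21 FPKM in the KO and 34.7 ± 1.83 FPKM in the WT (1.20, limma adjusted p = 1.310e-07). DTD1, which removes D-amino acids from tRNA, rose by 1.21, TRNT1, which adds the CCA end to tRNA, by 1.11, PTRH2, a peptidyl-tRNA hydrolase, by 0.90, and AARSD1, an alanyl-tRNA editing protein, by 0.88. TARSL2 and GATB, a subunit of the mitochondrial amidotransferase, did not pass, at 0.07 and -0.15. Medians of the genes within 10 Mb were 0.55 around DTD1, 0.52 around XPOT and 0.45 around TRNT1. They were 0.21 around AARSD1, 0.17 around TUFM and 0.14 around PTRH2. In CT26, 4 of the 15 rose and 5 fell, 26.7% and 33.3%, near the 22.3% and 33.4% of all genes, with a median of -0.10. Dtd2, a proofreading enzyme, averaged 11.1 ± 1.29 FPKM in the KO and 5.47 ± 0.478 FPKM in the WT (0.90, limma adjusted p = 5.885e-05), and Xpot averaged 106 ± 7.29 FPKM in the KO and 139 ± 6.66 FPKM in the WT (-0.39, limma adjusted p = 5.018e-04). Eef1a1, the cytosolic elongation factor, rose by 0.23 in CT26, though it has many near-identical processed copies that could share its reads. Neighbours within 10 Mb in CT26 had medians of 0.58 around Dtd2, -0.11 around Xpot and -0.15 around Eef1a1. The part of regional shifts in the changes of the scaffold and charging partner genes was not tested.

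The amino acid response, in which ATF4 raises genes of amino acid supply, was followed with 30 genes. This list too was chosen with results known and most genes named for their small adjusted p, so the p-values are a description. In MDA-MB-231, 21 of 29 tested rose and 5 fell, 72.4% and 17.2% against 42.6% and 25.7% of all genes, with a median log2 fold change of 0.64. ATF4 itself, named here for its role and outside the rule for naming genes, averaged 197 ± 10.4 FPKM in the KO and 114 ± 5.73 FPKM in the WT (0.78, limma adjusted p = 2.235e-06). SHMT2 and MTHFD2, enzymes of mitochondrial one-carbon metabolism, rose by 1.63 and 1.60. PSAT1, an enzyme of serine synthesis, rose by 1.61, TRIB3, a pseudokinase induced by ATF4, by 1.61, EIF4EBP1, an inhibitor of translation initiation, by 1.25, and SLC7A11, the cystine transporter, by 2.87 (limma adjusted p between 1.793e-08 and 3.180e-07). Medians of the genes within 10 Mb were 0.46, 0.45 and 0.39 around SHMT2, MTHFD2 and TRIB3. Around EIF4EBP1, ATF4, SLC7A11 and PSAT1 they were 0.11, 0.09, 0.02 and -0.05. The 5 that fell were DDIT3, DDIT4, EIF2AK3, NUPR1 and VLDLR. The median around DDIT3 was 0.46. DDIT3, the pro-apoptotic factor CHOP, averaged 14.5 ± 1.76 FPKM in the KO and 19.99 ± 1.42 FPKM in the WT (-0.44, limma adjusted p = 0.00232). In GENCODE 29 it overlaps MARS, on the opposite strand, in chr12:57516588-57517569, so reads there could be split between them.

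In CT26, 7 of 28 tested genes of the amino acid response rose and 12 fell, 25.0% and 42.9% against 22.3% and 33.4% of all genes, with a median log2 fold change of -0.11 against -0.06. Atf4 averaged 502 ± 30.2 FPKM in the KO and 537 ± 20.8 FPKM in the WT and did not pass (-0.10, limma adjusted p = 0.105). Psph, the last enzyme of serine synthesis, fell by 1.06, Ddit3 by 0.90, Trib3 by 0.77, Slc7a1, a transporter of cationic amino acids, by 0.64, and Asns, the asparagine synthetase, by 0.37. Vldlr, a lipoprotein receptor, rose by 0.68. The adjusted p of these 6 was at most 5.110e-05 in limma. Neighbours within 10 Mb had medians of -0.30 around Slc7a1, -0.26 around Psph, -0.17 around Asns and -0.14 around Trib3. Around Ddit3 and Vldlr they were -0.13 and -0.05. The part of regional shifts in the amino acid response genes of either line was not tested. Ddit3 shares its deposited locus with Mars. Slc7a5, a transporter of large neutral amino acids, was listed at 0 in every CT26 library with a failed estimate and was not tested.

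**Figure D5:**
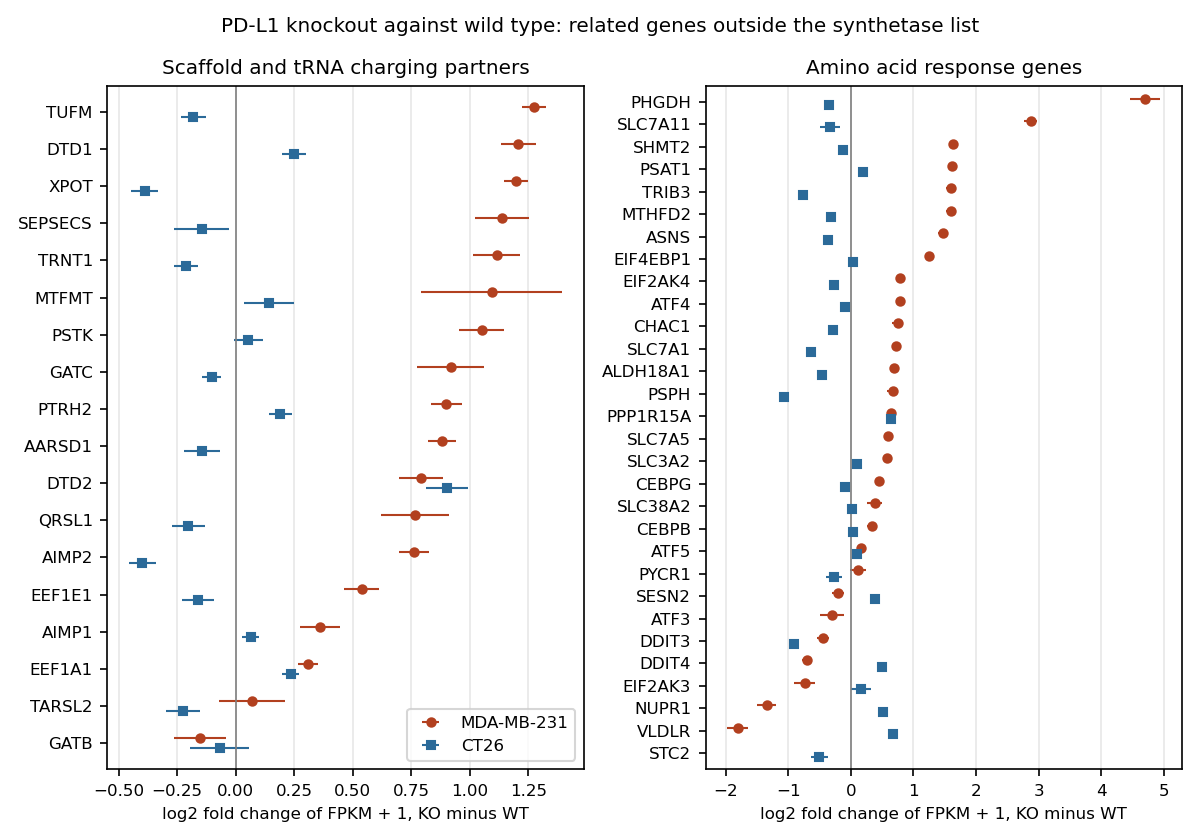
Log2 fold change of FPKM + 1, KO minus WT, of the scaffold and charging partner genes (left panel) and of the amino acid response genes (right panel), ordered by the value in MDA-MB-231. Circles are MDA-MB-231, squares are CT26 and bars are the standard error from limma with 4 libraries a group. Nearly all charging partners lie right of 0 in MDA-MB-231 and on both sides of 0 in CT26; PHGDH in MDA-MB-231, at 4.71, is the point furthest right.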

How the data were processed

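Total RNA from 16 libraries, 4 KO and 4 WT in each of MDA-MB-231 and CT26, was grouped by the titles of the samples. Per the submitters' processing notes, bcl2fastq 2.18, STAR 2.5.4a, Cufflinks 2.2.1 and Cuffdiff were used with builds hg38 and mm10. The sources used here do not give strand, annotation or settings. The authors deposited 1 table per line with FPKM per gene and library, group values in FPKM, and a p-value and q-value of their own test. Genes that the authors marked as failed estimates (13 for MDA-MB-231, 212 for CT26) were left out.

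Genes of at least 1 FPKM in at least 4 of 8 libraries were tested as log2(FPKM + 1), a scale that understates changes of low genes. KO and WT were compared in limma 3.58.1 (R 4.3.3) with a mean-variance trend, two-sided, and p-values were adjusted by Benjamini-Hochberg across the genes tested in a line, with a threshold of 0.05. Raw counts were not used here, so depth was read, relative to WT replicate 1, from the steps of low FPKM values, and it limits the shallower MDA-MB-231 KO most at low levels. Genes were named by a rule: per line and compartment the 5 members with the largest change, WARS, both FARS subunits, the scaffold genes and up to 6 genes of each other list with the smallest adjusted p. SARS, CARS, AARS2, WARS2, HARS, HARS2, Lars2, Mars2 and Cars were described beyond it after their values were seen. A gene of the charging partner list is not reported here. The members and all lists were chosen with earlier results of these data known. Human positions came from GENCODE 29 and mouse positions from the deposited loci, which can span overlapping genes. Python 3.11.15, numpy 2.4.6, pandas 2.3.3, scipy 1.17.1 and matplotlib 3.10.9 served for the rest. On simulated data with 200 changed genes, a log2 change of 0.5 was recovered for 44% of them in MDA-MB-231 (14450 genes) and 69.5% in CT26 (11341 genes), and a change of 1 for 83.5% and 91.5%. In the data 68.2% of genes were called in MDA-MB-231 and 55.8% in CT26, a far larger part than was changed in the simulation. The adjusted threshold was therefore stricter in the simulation, and its shares do not give the recovery in these data. Replicate numbers were not used to pair the samples in the main fit. Deviations of same-numbered KO and WT libraries correlated at -0.0365 to 0.0044 in MDA-MB-231 and at 0.0273 to 0.0779 in CT26. In CT26 each KO library matched the WT library of its own number best, and whether those share a batch was not tested. Alternatives covered the pseudocount, the filter, the scaling, the neighbours' median, the trend, a replicate block and leaving out each library. The share of all genes called in each direction under each alternative is not given here.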

Additional observations from a re-analysis of the deposited data

Results flagged for a closer look

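In 1 of 72 groups of 4 libraries in MDA-MB-231 and in 2 of 72 in CT26, 1 library lay far from the other 3 of its group by Dixon's test at the 95% level, a level at which chance alone gives some such groups. TARS stood at 303.1 FPKM in KO replicate 2 of MDA-MB-231, and the other KO libraries lay between 277 and 281 FPKM, all above the WT. Mars stood at 119.3 FPKM in WT replicate 3 of CT26, with the other WT libraries between 134 and 136 FPKM. Tars2 stood at 37.7 FPKM in KO replicate 4 of CT26, with the other KO libraries between 44.4 and 45.1 FPKM. Mars and Tars2 passed no call in CT26 with or without these libraries.

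For 8 genes every KO library was above every WT library in MDA-MB-231 and below every WT library in CT26, which drew attention to the difference between the lines. Such separation was common over all genes, at 39.1% with the KO above in MDA-MB-231 and 31.1% with the KO below in CT26. The share of all symbols with both is not given here. MDA-MB-231 minus CT26, the log2 fold changes differed by 1.997 for NARS, 1.499 for FARSB, 1.18 for YARS, 1.15 for EPRS, 1.13 for MARS2, 1.10 for RARS, 1.08 for IARS and 0.70 for GARS. The values behind NARS were 1.40 in MDA-MB-231 and -0.60 in CT26, and those behind FARSB were 1.14 in MDA-MB-231 and -0.36 in CT26. With the neighbours' median subtracted, Farsb and Mars2 turned to 0.12 and 0.17 in CT26 and, like Yars at -0.14, were not called. The difference between the lines was not tested, since their tables were normalized apart.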

How the results depend on the processing

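The log2 fold changes of the 36 genes kept their sign with pseudocounts of 0.1 and 5, without a filter, without the trend and with the replicate block, and so did the genes that passed the stricter filter, which left out PARS2 in MDA-MB-231 and Ears2, Mars2 and Pars2 in CT26. The replicate block treats libraries of the same number as paired, and each CT26 KO library matched the WT library of its own number best. With it 28 genes rose and 1 fell in MDA-MB-231, since AARS2 lost its call, and 8 rose and 13 fell in CT26. Without a filter 1 gene fell in MDA-MB-231. The mitochondrial median in MDA-MB-231 was 0.36 with a pseudocount of 5 and 0.49 with the stricter filter. With upper-quartile scaling, quantile normalization and subtraction of the neighbours' median, the cytosolic median in MDA-MB-231 was 0.49, 0.47 and 0.59, the mitochondrial median 0.24, 0.29 and 0.27, and CD274 -0.40, -0.32 and -0.50, with limma adjusted p = 0.0157, 0.0425 and 0.00463. The first pair of these scalings gave 4 genes lower in MDA-MB-231, and turned IARS2 to -0.083 and -0.10. In CT26 the same 3 settings gave a cytosolic median of -0.041, -0.048 and -0.090. The mitochondrial median in CT26 turned to 0.038 with upper-quartile scaling and 0.057 with the neighbours' median. Upper-quartile scaling turned Vars to 0.088, Ears2 to 0.060, Rars2 to 0.0685 and Sars2 to 0.016, and quantile normalization turned Vars to 0.0865 and Rars2 to 0.063. Subtraction of the neighbours' median turned AARS2 to 0.12, CARS2 to -0.50 and FARS2 to 0.036 in MDA-MB-231, where YARS2 and EARS2 lost their calls at 0.21 each. In CT26 it left 3 genes higher and turned Aars to -0.19, Dars to 0.0058, Farsb to 0.12, Hars to -0.024, Tars to -0.14, Vars to 0.11, Wars to -0.24, Ears2 to 0.052, Mars2 to 0.17 and Rars2 to 0.062. The cause of these changes was not tested. Leaving out 1 library at a time gave 1 to 2 genes lower in MDA-MB-231 and a mitochondrial median of 0.39 to 0.52 there, and moved SARS between -0.030 and 0.0051. In CT26 it moved Aars between -0.0060 and 0.085, Vars between -0.046 and 0.026, Ears2 between -0.050 and 0.022, Rars2 between -0.062 and 0.014 and Tars2 between -0.018 and 0.077. IARS2 in MDA-MB-231 gained a call without WT replicate 1, CARS2 without KO replicate 2 or WT replicate 3, and Qars in CT26 without KO replicate 3 or WT replicate 4.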
